A study of Mus musculus with 768 samples.

Results

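The clustered histone genes are the 68 genes of the deposited count file, out of 23127, whose symbol begins with Hist1h, Hist2h, Hist3h or Hist4h. By the core or linker histone they encode they fall into 6 H1, 18 H2A, 19 H2B, 12 H3 and 13 H4 members, of which Hist3h2bb-ps is annotated as a pseudogene. Their levels were followed in single thymocytes of C57BL/6 mice aged 6 to 8 weeks, sorted onto 8 plates of 96 cells, each plate being 1 library here. Wild type (WT), Tcf7-/- and Tcf7fl/fl mice with Vav-cre each gave 1 plate of the DN1 gate (CD45+ Lin- CD4- CD8- CD25- CD44+) and 1 plate of the DN2-3 gate (CD45+ Lin- CD4- CD8- CD25+). From Tcf7fl/fl mice with Lck-cre there were 2 plates, all CD25+ cells as in the DN2-3 gate. Vav-cre acts throughout the blood lineages, and Lck-cre acts from the T-cell precursor stage. Tcf7 encodes the T-cell transcription factor TCF1, and the question of the study was what its loss at different stages does to thymocyte gene expression. The labels name no animal and no sex, so each plate is the unit of replication, and spread between plates may be technical.

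Tcf7 itself was at 134 CPM in WT DN1 (CPM, counts scaled to a common library total of 1000000), 98.6 CPM in Tcf7-/- DN1 and 368 CPM in Vav-cre DN1. In the DN2-3 gate it was at 862 CPM in WT, 122 CPM in Tcf7-/-, 964 CPM in Vav-cre, and 762 and 658 CPM on the Lck-cre plates. Tcf7 was thus far below WT in the library labelled Tcf7-/- DN2-3 alone. It was only slightly below WT in Tcf7-/- DN1 and on the Lck-cre plates and above WT in the Vav-cre libraries. The counts do not clearly show the deletion in those 5 libraries, and which part of the gene was removed or counted is not given in the sources used here, so every genotype below is the one on the label. The analysis used the 675 of 768 cells in which 1000 or more genes were detected, 58 to 96 a plate, with 1547512 to 8371808 summed counts a plate. Markers of DN2-3 T precursors were all above 10 CPM on every DN2-3 plate (10 of 10, summing to 4990 to 8430 CPM). In the DN1 libraries 7, 10 and 8 of these 10 were above 10 CPM in WT, Tcf7-/- and Vav-cre, summing to 2690 to 4240 CPM, so these markers were not limited to the DN2-3 gate. Innate lymphoid (ILC) markers summed to 4720 to 5970 CPM in the DN1 plates against 211 to 581 CPM in the DN2-3 plates. The Tcf7-/- samples carry differently worded labels and list 1 genome name fewer than the rest, so for them genotype and a possible batch cannot be told apart.

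Histone proteins package DNA, and a dividing cell must double its supply while it copies its genome. Most clustered histone genes are therefore transcribed in S phase, when the regulator Npat activates them at histone locus bodies. Their messages typically end in a short stem-loop bound by stem-loop binding protein (Slbp) in place of a poly(A) tail, and are degraded when replication stops. A few members also give polyadenylated messages from a downstream signal, which can be made outside S phase. Replacement variants such as H2afz and H3f3b lie outside the clusters and are polyadenylated. In the early thymus the CD25+ stages are known for rapid division. The sample labels describe poly(A) RNA for all libraries except the Tcf7-/- ones, where the RNA selection is not labelled, and whether stem-loop-ended messages were counted as completely as polyadenylated ones was not tested.

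The stem-loop is shown for members on which the results turn, although its presence in a model does not settle how the message ends. It was found in the gene model of 44 of the 68 members (GENCODE transcripts, GRCm38) as a 16-base inverted repeat. The capitals mark the repeat, and the lower-case letters are the bases on either side.
Hist1h2ae: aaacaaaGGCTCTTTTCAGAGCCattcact
Hist1h2ap: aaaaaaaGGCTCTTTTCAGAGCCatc
Hist1h2bj: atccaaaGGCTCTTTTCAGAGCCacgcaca
Hist1h1e: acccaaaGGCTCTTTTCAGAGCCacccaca
Hist1h1c: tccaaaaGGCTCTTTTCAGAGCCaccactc
Hist3h2a: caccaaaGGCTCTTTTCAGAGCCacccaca
Hist1h4i: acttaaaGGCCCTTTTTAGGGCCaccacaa
Hist1h4c: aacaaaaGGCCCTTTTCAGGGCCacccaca
The form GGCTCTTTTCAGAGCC stood in 3 H1, 10 H2A, 8 H2B and 5 H3 members. No H4 member carried it: 7 had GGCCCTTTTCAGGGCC, 2 had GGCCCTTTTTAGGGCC and 2 had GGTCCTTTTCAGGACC, so the stem of the H4 repeats differs from that of the other families in this annotation. In 22 members the model ended within 100 bases of the repeat, in 22 it ran on further, and in 24 the model held no repeat, which says only that these letters are not in the model. Hist1h2ap ended 3 bases after the repeat, Hist1h2bj 23, Hist1h2ae 151, Hist1h4i 330, Hist1h1c 840, Hist1h1e 1153 and Hist3h2a 1643 bases after it. Hist1h2bc and Hist1h1b had no repeat in their models. A poly(A) signal (AATAAA or ATTAAA) lay within 40 bases of the model end in Hist1h2ae, Hist1h4i, Hist1h1c and Hist3h2a. None lay there in Hist1h2ap, Hist1h2bj, Hist1h1e, Hist1h4c, Hist1h2bc or Hist1h1b. Which end the counted messages had was not tested.

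Of the members, 54 lie on chromosome 13, 10 on chromosome 3, 3 on chromosome 11 and 1 on chromosome 6. All coordinates are GRCm38. The members that passed a test below are Hist1h2ae at chr13:23570517-23571220 (minus strand), Hist1h2ap at chr13:21833026-21833507 (minus strand), Hist1h1b at chr13:21779883-21780625 (minus strand), Hist1h2bj at chr13:22043214-22043676 (plus strand) and Hist1h1e at chr13:23620629-23622558 (minus strand). Hist3h2a lies apart from them at chr11:58954685-58956830 (plus strand). Each of these 6 models is a single exon. Near-identical copies limit what a count can be assigned to: Hist1h2ap shares 93.1% of its 50-base windows with another gene, mostly Hist1h2ao, and Hist1h2ae shares 43.2%, mostly with Hist1h2ad. Hist1h2bj shares 59.4%, and Hist1h1e 32%, mostly with the Hist1h2be model that overlaps it. Hist1h1b shares none. Hist3h2a shares 31.5%, mostly with the overlapping Trim17 model. Trim17 itself was at 0 counts on all 5 DN2-3 plates, but in the DN1 gate at 0.844 CPM in WT, 0 in Tcf7-/- and 11.6 CPM in Vav-cre. How reads that match several copies were counted is not given in the sources used here, and values for members with shared windows are uncertain to that extent.

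Clustered histone RNA made up a small and unevenly held share of the counts. The 68 members together had 23085 counts, 0.0543% of all counts in kept cells. At least 1 such count was found in 554 of 675 cells (82.1%), with a median of 6 per cell, yet 66.7% of the counts lay in the 67 cells with the most. A single cell held as many as 1263. Members were equally uneven: the 4 members with the most counts held 52% of them and the top 10 held 77.6%. In 13 members a single cell held the majority of all counts. Among them, Hist1h2ad, Hist1h2ao, Hist1h2ba and Hist3h2bb-ps had just 1 count each, so for these it could not be otherwise. The plot of levels by library and the values below should be read with that in mind, since Poisson intervals cover counting error only, molecular identifiers are not described, and 1 bright cell can set a library's value.

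No count in any kept cell was found for 11 members. In reads assigned to them, this allows up to 0.0706 CPM each over all cells (3 counts of 42502730). The windows these members share with other genes ranged from 0% in Hist1h1t to 100% in Hist2h2aa2 and Hist2h3c1. Hist1h2aa, Hist2h2ab and Hist2h2bb lay at 2.35 to 53.6%, and Hist1h2af, Hist1h2ah, Hist1h2bq, Hist2h2aa1 and Hist2h3b at 79.7 to 97.3%. Where most windows are shared, 0 counts set no limit on the RNA, because the counting of shared reads is not given. Another 42 had counts but stayed under 20 CPM in every library, their highest library value ranging from 0.119 to 17.4 CPM with a median of 5.44 CPM. The remaining 15 reached 20 CPM in at least 1 library. No H3 member was among them: the highest, Hist1h3c, reached 17.3 CPM in Tcf7-/- DN2-3. By counts over all kept cells, Hist1h2bc ranked first with 4120, followed by Hist1h2ae with 3310 and Hist1h1e with 3029. Per kilobase of the longest model the order changed. Hist1h2ae then led with 4700 counts per kb, followed by Hist1h2bc with 3560, Hist1h2ap with 3230, Hist1h4i with 2080 and Hist1h1e with 1570. Whether counts of this protocol grow with model length was not tested, so the order per kb depends on the annotation. The 22 members whose model ends near the stem-loop held 15.5% of the histone counts and 3 of the 15 members at 20 CPM. The 22 that run on past it held 60% and 10 of the 15, and the 24 without a repeat held 24.5% and 2 of the 15. These shares are not corrected for length, and RNA selection and annotation cannot be told apart in them.

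**Figure D1:**
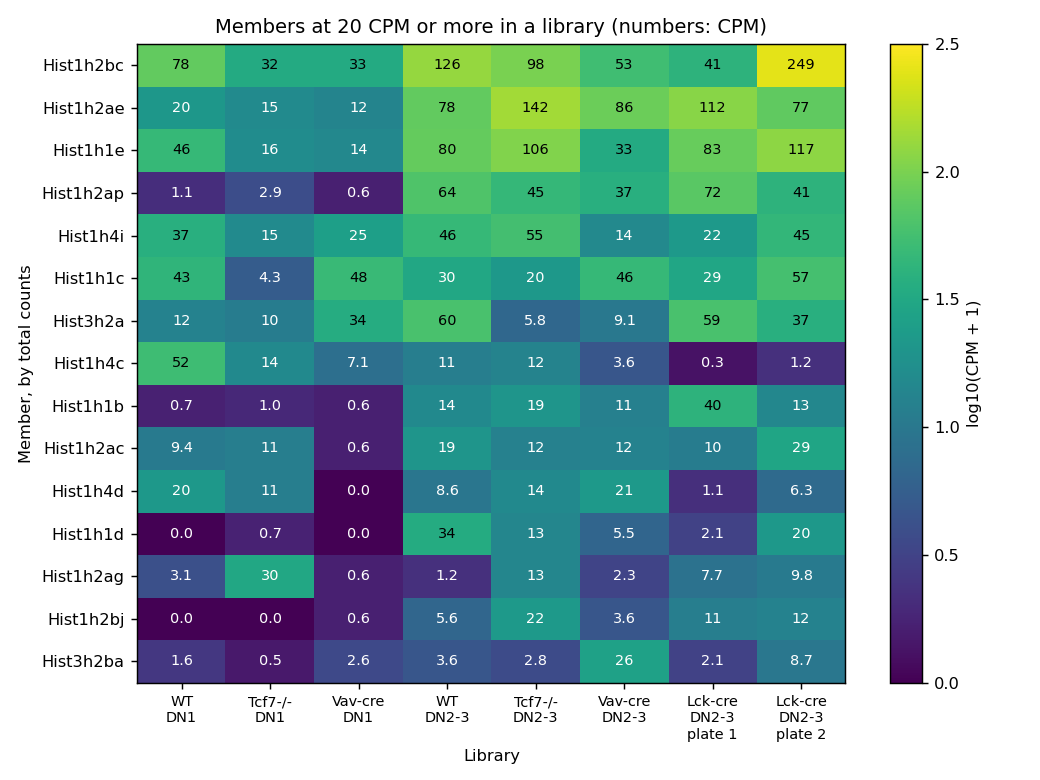
Level of each member that reached 20 CPM in a library (rows, ordered by total counts) in the 8 libraries (columns). Numbers are CPM and colour is log10(CPM + 1). Hist1h2ap, Hist1h1b and Hist1h2bj are at or below 2.89 CPM in all 3 DN1 libraries, and Hist1h2bc reaches 249 CPM on Lck-cre plate 2.

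The sum over members was lower in each DN1 library than in each DN2-3 library. In the DN1 gate it was 387 CPM in WT (95% Poisson interval 373 to 402), 224 CPM in Tcf7-/- (209 to 238) and 216 CPM in Vav-cre (194 to 241). In the DN2-3 gate it was 646 CPM in WT (624 to 669), 687 CPM in Tcf7-/- (669 to 705), 449 CPM in Vav-cre (430 to 470), and 566 CPM (547 to 585) and 800 CPM (777 to 823) on Lck-cre plates 1 and 2. The gates do not overlap, but the 2 Lck-cre plates, the only repeats of a group, differ by more than WT and Tcf7-/- do in the DN2-3 gate. In the DN1 gate the log2 ratio of Tcf7-/- to WT was -0.79, larger in size than the 0.50 between the Lck-cre plates. The families were not in a fixed ratio. H2A summed to 46.1 to 68.8 CPM in the DN1 libraries and 147 to 264 CPM in the DN2-3 libraries, without overlap, whereas H4 was at 37.5 to 135 CPM in DN1 and 41.9 to 104 CPM in DN2-3, with the highest value in WT DN1. H3 stayed between 11 and 46.7 CPM everywhere.

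**Figure D2:**
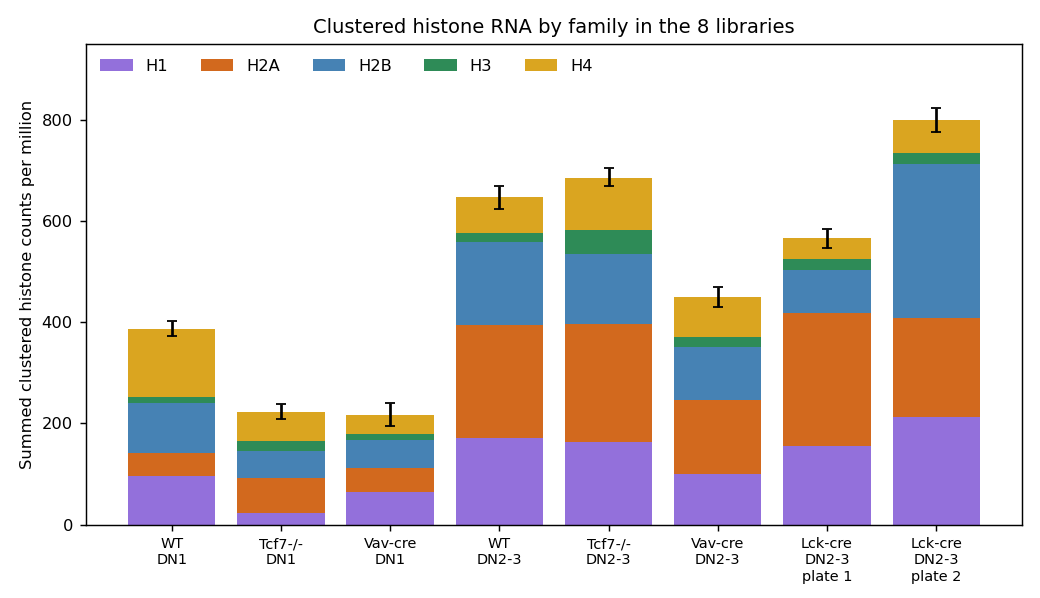
Summed CPM of the clustered histone members in each library (bars, from 0), split by family (colours). Black bars are 95% Poisson intervals of the total. The 3 DN1 libraries lie at 387 CPM or below and the 5 DN2-3 libraries at 449 CPM or above, and H2B makes up most of the gap between the Lck-cre plates.

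The link of the members to DNA replication was examined within the DN2-3 plates. Each cell was scored by the share of its counts in 50 replication genes, none of them a histone gene or a histone mRNA factor. In each plate the 3 equal parts of the cells by this score were formed, and summed counts of the high and the low part were compared over the 5 plates, with the plate as a block (edgeR quasi-likelihood test, Benjamini-Hochberg adjustment over all 8401 genes tested). This gave 147 cells in each class. The core H2A genes Hist1h2ae and Hist1h2ap, the core H2B gene Hist1h2bj and the linker histone gene Hist1h1b rose in cells with a high replication score, while the other tested H2A and H2B members did not pass the test. The summed members did not follow the score on every plate. Spearman's rho across the cells of a plate, between this score and the share of counts in the members, was -0.13 in WT (88 cells), 0.30 in Tcf7-/- (93), 0.10 in Vav-cre (76), and 0.02 (91) and 0.27 (87) on Lck-cre plates 1 and 2. Both shares come from the same library of each cell, so these values are a description. In low-score cells the members summed to 684 CPM in WT, against 646 CPM in all WT DN2-3 cells. Its sums were 395, 353, 545 and 202 CPM on the Tcf7-/-, Vav-cre and Lck-cre plates 1 and 2. These lay below the 687, 449, 566 and 800 CPM of all cells there.

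Hist1h2ae, which encodes a core H2A, rose with the score on every plate. In high-score cells it was at 150 CPM in WT, 196 in Tcf7-/-, 200 in Vav-cre, and 223 and 149 on Lck-cre plates 1 and 2, and in low-score cells at 12.3, 27.5, 20, 7.22 and 7.64 CPM in the same order. No high value comes near a low one. The log2 fold change was 3.82 (approximate SE 0.38, n = 5 plates, adjusted p = 1.14e-05), and it stayed past the threshold of 0.05 under each alternative setting tried. Hist1h2ae was counted in 59 of 147 high-score and 31 of 147 low-score cells. After each cell was thinned to 10000 counts it was found in 14.8%, 35.5%, 23.8%, 34.5% and 21.7% of the high-score cells of the 5 plates, against 11.1%, 10%, 13%, 6.67% and 0% of the low-score cells.

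Hist1h2ap, also a core H2A, was at 84.2, 74.6, 94, 110 and 78.8 CPM in high-score cells of WT, Tcf7-/-, Vav-cre and Lck-cre plates 1 and 2. In low-score cells it was at 67.6, 5.77, 4.82, 61.1 and 2.55 CPM. The high values resemble each other, whereas among the low values WT and Lck-cre plate 1 stand far above the other plates. The log2 fold change was 2.74 (SE 0.66, adjusted p = 0.0172).

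Hist1h1b, a linker histone that compacts chromatin between nucleosomes, was at 19.6, 27.1, 29.9, 69.8 and 31.2 CPM in high-score cells and at 18.4, 2.66, 0.689, 0.555 and 0 CPM in low-score cells. In WT the classes barely differ, and in the other 4 plates they are far apart (log2 fold change 4.39, SE 1.13, adjusted p = 0.0242). Its counts came from few cells, 481 counts in 19 of 147 high-score cells and 32 counts in 4 of 147 low-score cells. Over all kept cells of a plate, 1 cell held 52.8%, 41.9%, 90%, 60.7% and 52.6% of its counts, with plates in the same order.

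Hist1h2bj, a core H2B, had 310 counts in 21 high-score cells and 5 counts in 5 low-score cells. Over all kept cells of a plate, 1 cell held 28.6% of its counts in WT and 23.6% in Tcf7-/-. In Vav-cre 1 cell held 93.8%, and on Lck-cre plates 1 and 2 it was 93.8% and 85.5%, so single cells largely set those values. By plate Hist1h2bj was at 7.23, 35.4, 9.34, 22.9 and 27.2 CPM in high-score cells against 2.3, 0, 0.689, 0 and 0.509 CPM in low-score cells. The fitted log2 fold change of 5.10 (SE 1.34, adjusted p = 0.0271) rests on low counts, as 0 counts allow up to 1.33 and 1.67 CPM in those 2 low-score classes. Without Lck-cre plate 2 or without the Tcf7-/- plate, Hist1h2ae was the sole member past the threshold, so 4 called members became 1. Their log2 fold changes stayed positive there, at 3.74 and 4.85 for Hist1h1b, 2.21 and 2.41 for Hist1h2ap and 4.90 and 4.37 for Hist1h2bj. Hist1h1b also missed the threshold without Lck-cre plate 1 (edgeR adjusted p = 0.134) and without Vav-cre (0.0571), Hist1h2ap without Vav-cre (0.0556) and Hist1h2bj without Lck-cre plate 1 (0.103). Hist1h2ae passed without any 1 of the 5 plates.

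In all, 14 of the 68 members had enough counts to be tested here. Of these, 4 rose and 0 fell, where 5.52% of all genes tested rose and 2.52% fell. The median log2 fold change of the 14 was 2.03, against -0.02 over all genes. At an unadjusted p under 0.05 there were 10 of the 14, and DESeq2 placed 7 members higher and 1 lower. Hist1h2ag had 157 counts in 27 high-score cells and 21 counts in 4 low-score cells and was higher on 5 of 5 plates (adjusted p = 0.101). The log2 fold change was 3.88 for Hist1h4d (adjusted p = 0.146), 2.21 for Hist1h4i (0.0762) and 1.86 for Hist1h1e (0.115), none past the threshold in the edgeR quasi-likelihood test.

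Negative log2 fold changes were found for 5 of the 14 members, of which Hist3h2a, Hist1h1c, Hist1h2bc and Hist3h2ba are known to give polyadenylated messages. Hist1h2ac, the remaining tested member of the polyadenylated list, had a positive value of 0.78 (adjusted p = 0.596 from edgeR) and was higher on 4 of 5 plates. Hist3h2a, an H2A gene outside the large cluster, was lower in high-score cells on 5 of 5 plates. It was at 30.6, 1.96, 8.09, 15.9 and 7.2 CPM in high-score cells and at 117, 10.7, 9.65, 87.2 and 30 CPM in low-score cells of WT, Tcf7-/-, Vav-cre and Lck-cre plates 1 and 2. Levels differ more between plates than between classes. The log2 fold change was -1.79 (SE 0.54), and the adjusted p of 0.0529 from edgeR missed the threshold. DESeq2 gave -1.80 with adjusted p = 0.00568, and edgeR without the Vav-cre plate gave -2.12 with 0.0193. Hist1h1c, a linker histone, had a log2 fold change of -1.47 (adjusted p = 0.189) and was lower on 4 of 5 plates. Hist1h2bc, a core H2B, had -1.02 (0.653), with 167, 170 and 132 CPM in the low-score cells of WT, Tcf7-/- and Vav-cre against 48.5, 66 and 0.623 CPM in the high-score cells, and the opposite on Lck-cre plate 2, with 2.55 against 146 CPM. The cells with a count did not fall alike, as there were 45 of 147 in the high and 34 of 147 in the low class. In Vav-cre Hist1h2bc was counted in 3.85% of the 26 cells of either class, so single cells set those 2 values. Hist1h1d and Hist3h2ba were at -1.66 and -0.51 (adjusted p = 0.476 and 0.888). Of 12 members listed as polyadenylated or testis variants, 5 were tested, 0 passed in either direction, and the median log2 fold change was -1.02. That list was drawn up with earlier results of these data known.

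**Figure D3:**
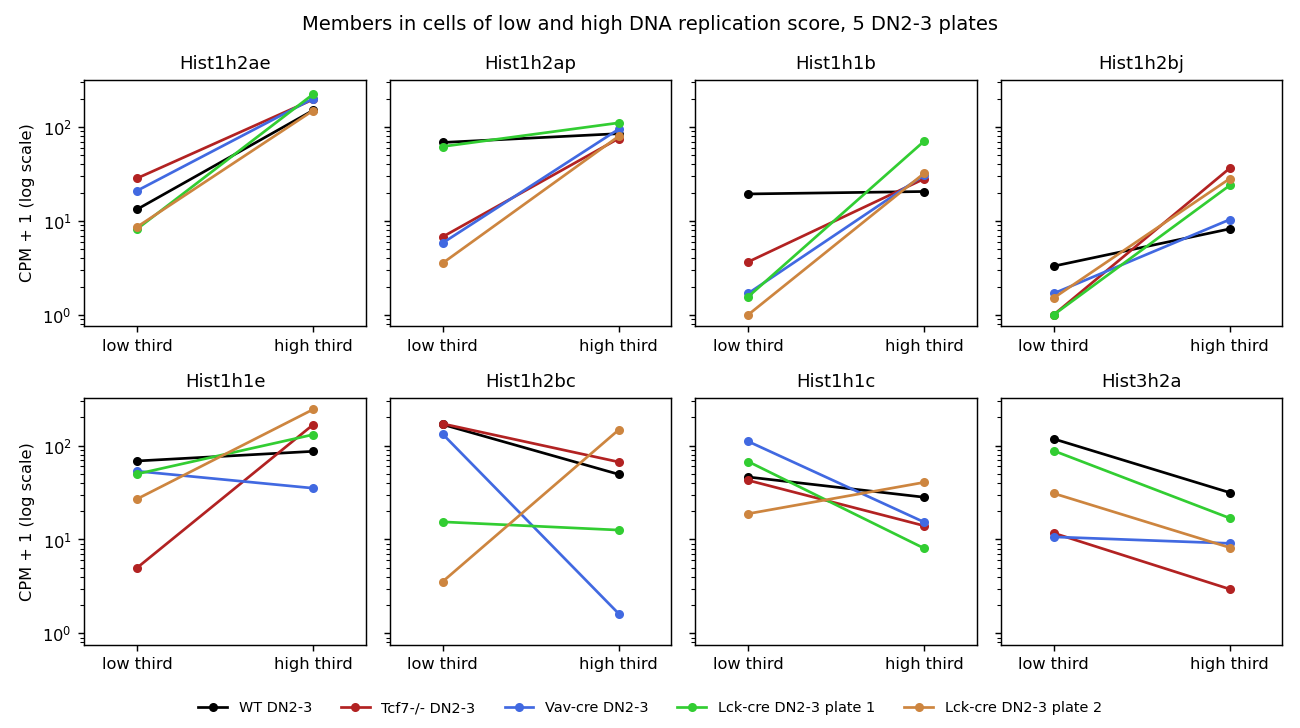
CPM + 1 (log scale) of 8 members in cells with a low and a high DNA replication score, 1 line per DN2-3 plate. All 5 lines rise for Hist1h2ae, Hist1h2ap, Hist1h1b and Hist1h2bj, all 5 fall for Hist3h2a, and those of Hist1h2bc run in both directions.

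High-score cells were also sequenced more deeply on each plate. The median counts per cell were 62806 against 35773 in WT, 101305 against 57929 in Tcf7-/-, 65459 against 42189.5 in Vav-cre, 73571 against 58220 on Lck-cre plate 1 and 49025 against 47766 on plate 2. When each cell was thinned to 10000 counts before summing, 5 members could be tested and Hist1h2ae alone rose. The part of depth in the calls of the other members was not tested beyond this. Mitosis genes moved with the same score, 23 of 38 tested rising, so the classes do not separate S phase from later phases.

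A second score, the share of counts in 42 mitosis genes, was treated in the same way. Of 12 members tested, 4 rose and 0 fell, where 2.1% of all 8267 genes rose and 0.544% fell. They were Hist1h2ae, Hist1h1b, Hist1h2ap and Hist1h1e, again 2 H2A and this time 2 linker histones. Hist1h2ae was at 167, 266, 244, 267 and 193 CPM in high-score cells of WT, Tcf7-/-, Vav-cre and Lck-cre plates 1 and 2, and at 8.94, 48.2, 4.52, 2.1 and 13.1 CPM in low-score cells (log2 fold change 4.41, SE 0.50, adjusted p = 6.86e-05). Hist1h1b was at 22.8, 36.8, 34.3, 78.1 and 36.5 CPM against 0.745, 0.423, 0, 0.525 and 0 CPM. That is 477 counts in 17 cells against 3 counts in 3 cells, and the fitted log2 fold change of 6.71 (SE 0.91, adjusted p = 0.000368) therefore depends on counts at the floor.

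Hist1h2ap was at 109, 74.9, 106, 146 and 97.2 CPM in cells with a high mitosis score and at 23.1, 20.3, 1.29, 5.78 and 5.23 CPM in cells with a low one (log2 fold change 3.61, SE 0.57, adjusted p = 0.00149). Hist1h1e, a linker histone that shares part of its model with Hist1h2be, was at 119, 208, 41.3, 163 and 275 CPM against 99.8, 17.3, 9.04, 37.3 and 17.7 CPM, close in WT and apart elsewhere (log2 fold change 2.44, SE 0.48, adjusted p = 0.00776). Without Lck-cre plate 2 its adjusted p was 0.0575. Hist3h2a had a log2 fold change of -0.15 (adjusted p = 0.956), higher on 2 of 5 plates. Hist1h1c and Hist1h2bc were at 1.05 and 1.04 (adjusted p = 0.536 and 0.705), the opposite sign to their replication score values. Whether any member differs between the scores was not tested, since both use the same cells. High-mitosis cells were deeper than low-mitosis cells on 3 of 5 plates, so the direction of depth was not the same throughout.

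**Figure D4:**
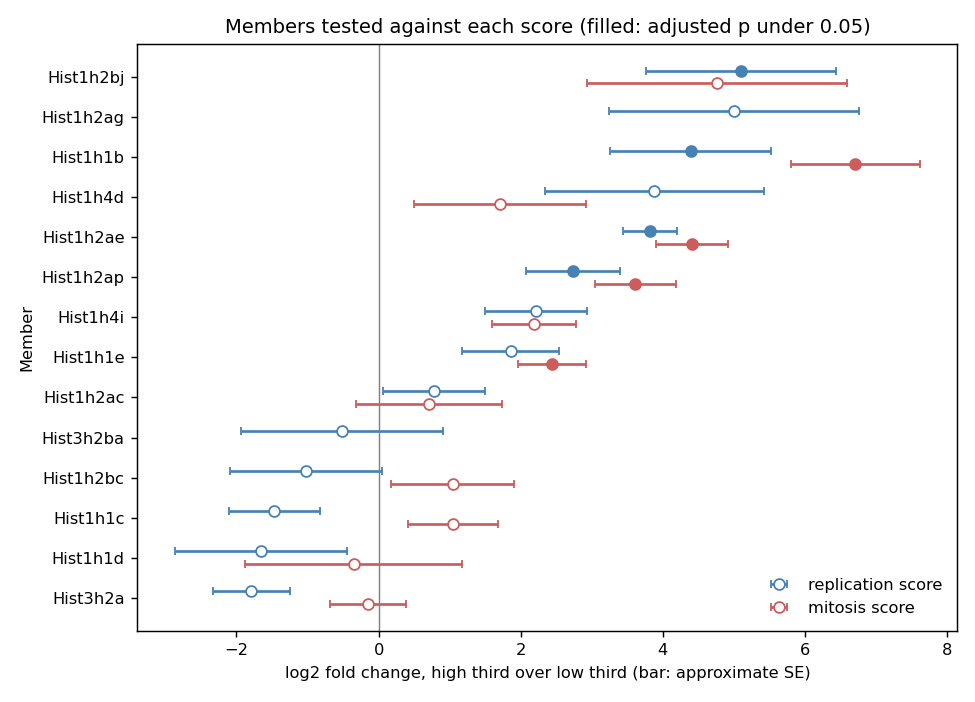
Log2 fold change of each member tested between cells of high and low score (x axis), with approximate SE, for the replication score (blue) and the mitosis score (red) over 5 plates. Filled points have an adjusted p under 0.05. Hist1h2ae, Hist1h2ap and Hist1h1b are filled for both scores, and Hist3h2a lies at -1.79 for replication and -0.15 for mitosis.

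The rest of the histone supply pathway was read from lists outside the clusters. Of 14 genes of histone mRNA transcription and 3′ end processing, 13 were tested against the replication score, 2 rose and 0 fell. Slbp, which binds the stem-loop, was at 392, 596, 244, 543 and 523 CPM in high-score cells and 117, 146, 78.6, 59.4 and 125 CPM in low-score cells, with no overlap (log2 fold change 2.19, SE 0.25, adjusted p = 4.36e-05). Casp8ap2, a component of the histone locus body, rose by 1.37 (SE 0.29, adjusted p = 0.00789). Npat was at 0.65 (adjusted p = 0.551). Lsm10, of the U7 particle that cuts histone messages, was at -0.32 (0.645). The cleavage factors Cpsf2 and Cpsf3 were at 0.68 and 0.18 and the exonuclease Eri1 at 0.96 (adjusted p = 0.117). Lsm11, Sympk, Cstf2, Cstf2t, Zcchc6 and Upf1 did not pass either, with log2 fold changes of -0.24, 2.52, 0.46, 0.23, -0.38 and -1.21.

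Of 11 replacement and variant histones, 9 were tested, 2 rose and 0 fell. H2afz, the variant placed at promoters, was at 1920, 3540, 1780, 2910 and 3030 CPM in high-score cells and at 833, 1780, 704, 719 and 914 CPM in low-score cells (log2 fold change 1.53, SE 0.15, adjusted p = 1.13e-05). H2afx, the variant phosphorylated at DNA breaks, rose by 1.33 (SE 0.28, adjusted p = 0.00819). H3f3b, which encodes a replacement H3, was at -0.17 (adjusted p = 0.317), H3f3a at 0.56 (0.523), H2afy at -0.22 (0.525), H2afj at 0.44 (0.304), H2afv at 0.53 (0.0683), H1f0 at 0.10 (0.959) and the centromere histone Cenpa at -0.08 (0.947). With the mitosis score, 4 of 9 rose: H2afz by 1.46, H2afv by 0.90, H2afx by 1.39 and Cenpa by 2.43 (adjusted p = 3.87e-07, 0.000771, 0.0172 and 0.00056). Among factors of mRNA making and processing, Slbp alone passed with that score (1.54, adjusted p = 0.000443).

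Among the chaperones that carry new histones and their partners, 9 of 19 rose and 0 fell with the replication score. Nasp, which buffers free histones, rose by 1.45 (SE 0.20, adjusted p = 0.000295), Asf1a by 1.34 (0.0134) and Asf1b by 4.94 (0.000705). Chaf1a, of the assembly factor that follows the fork, rose by 4.78 (0.00207), Hat1, which acetylates new H4, by 1.50 (0.00258), and Rbbp7, its partner, by 1.33 (0.000811). Ssrp1 and Supt16, the subunits of the FACT complex, rose by 1.09 and 1.27 (adjusted p = 0.0068 and 0.027), and Nap1l1 by 1.06 (0.000722). Hira, Daxx and Atrx, which deposit replacement H3, were at 1.19, -0.10 and -0.45, none past the threshold. These lists are described by their counts beside the 5.52% of all genes that rose, and the difference between lists was not tested.

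The DN2-3 gate was compared with the DN1 gate over the 3 genotypes with both, with genotype as a block. Of 27 members tested, 2 rose and 0 fell in DN2-3, where 0.932% of 10085 genes rose and 2.68% fell. Hist1h2ap was at 1.12, 2.89 and 0.646 CPM in the DN1 libraries of WT, Tcf7-/- and Vav-cre, and at 63.7, 45.4 and 37 CPM in their DN2-3 libraries (log2 fold change 5.06, SE 0.75, n = 3 pairs, adjusted p = 0.0177). The DN1 values rest on 2, 11 and 1 cells with a count. Hist1h2ae was at 20.1, 14.7 and 12.3 CPM against 77.6, 142 and 86.3 CPM (log2 fold change 2.68, SE 0.48, adjusted p = 0.0337). Neither member's gates overlap. Without the Tcf7-/- plates no member passed, with adjusted p = 0.0649 for Hist1h2ap and 0.199 for Hist1h2ae. Without the WT plates Hist1h2ae alone passed, and without the Vav-cre plates Hist1h2ap alone.

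Hist1h1b was also higher in DN2-3 in all 3 pairs, at 14.5, 19.1 and 11.4 CPM against 0.703, 0.962 and 0.646 CPM, with adjusted p = 0.0993 from edgeR. Hist1h1d, another linker histone, was at 0, 0.721 and 0 CPM in DN1 and 33.8, 13.1 and 5.48 CPM in DN2-3 (adjusted p = 0.104). Hist1h4c ran the other way in 3 of 3 pairs, with 52.3, 14.2 and 7.11 CPM in DN1 and 10.7, 12.2 and 3.65 CPM in DN2-3 (log2 fold change -1.14, adjusted p = 0.517). In WT DN1 it was counted in 19 cells, 1 of which held 40.6% of the counts. In Tcf7-/- DN1 1 cell held 89.8% of the counts, and in Vav-cre DN1 1 cell held all 11. Cells with a Hist1h4c count were fewer in DN2-3 only in WT (22.1% in DN1 against 5.68%). They were more in Tcf7-/- (6.25% against 11.8%) and Vav-cre (1.72% against 5.26%). Replication genes summed to 1820 to 2290 CPM in the 3 DN1 libraries and 4270 to 7360 CPM in the DN2-3 libraries of the same genotypes, and mitosis genes to 359 to 2050 CPM and 2790 to 3870 CPM. The DN1 libraries also held RNA of other cell types. Of 9 ILC markers 7 to 8 reached 10 CPM in DN1, of 10 NK markers 8 to 9 (2 to 3 in DN2-3, where their sum reached 9710 CPM in Vav-cre, with 1560 CPM for WT and 2880 CPM for Tcf7-/-), and of 7 dendritic markers 4 to 7, where the dendritic sum was 459 to 2380 CPM against 4.18 to 12.1 CPM in DN2-3. The part of cell mixture and of division in the gate difference was not tested.

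Within single libraries there is no test, and a member is called here when its log2 ratio with a pseudocount of 10 CPM reached 2-fold. In WT DN2-3 against WT DN1, 14 members were measured (10 CPM in either library), 6 were higher and 1 lower, where 28% of all measured genes were past 2-fold either way. Hist1h2ap (log2 ratio 2.73), Hist1h1d (2.13), Hist3h2a (1.69), Hist1h2ae (1.54), Hist1h1b (1.19) and Hist1h3a (1.02) were higher, and Hist1h4c (-1.59) was lower. Hist3h2a rose from 11.7 to 59.7 CPM in WT, but its gate log2 fold change over 3 genotypes was -0.16 (edgeR adjusted p = 0.951).

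Between Tcf7-/- DN1 and WT DN1 the families moved in both directions. H1, H2B and H4 were lower, at 22.8 against 96 CPM, 53.6 against 98.8 CPM and 57.9 against 135 CPM. H2A and H3 were higher, at 68.8 against 46.1 CPM and 20.4 against 11.1 CPM. The Poisson intervals overlapped in none of the 5 families, but they cover counting error only and each side is 1 library. Of 11 members measured, 4 were lower and 1 higher, where 15.8% of all measured genes were past 2-fold. Hist1h1c was at 4.33 against 42.6 CPM (log2 ratio -1.88), Hist1h4c at 14.2 against 52.3 CPM (-1.37), Hist1h1e at 15.6 against 45.8 CPM (-1.12) and Hist1h2bc at 32.5 against 77.5 CPM (-1.04). In WT DN1, 1 cell held 61.1% of the Hist1h1c counts and 1 held 53.7% of the Hist1h2bc counts. Hist1h2ag was higher, at 30.3 against 3.09 CPM (1.62), counted in 5 and 2 cells, and 1 cell held 49.2% of its Tcf7-/- DN1 counts. Its gap was larger than that of the H2A sums, so H2A without Hist1h2ag was not higher. The log2 ratio of the summed members was -0.79, but -0.07 when each cell was given equal weight, so this difference rests on how cells are weighted.

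Vav-cre DN1 against WT DN1 gave 4 lower and 2 higher of 9 measured members, where 27.7% of all measured genes were past 2-fold. Hist1h4c (7.11 CPM, log2 ratio -1.86), Hist1h4d (0 CPM against 20.5, -1.61), Hist1h1e (13.6 CPM, -1.24) and Hist1h2bc (33 CPM, -1.03) were lower. Hist1h4d at 0 counts allows up to 1.94 CPM in that library, the shallowest. Hist2h2be (17.4 against 0.984 CPM, 1.32) and Hist3h2a (34.2 against 11.7 CPM, 1.03) were higher. In Vav-cre DN1, 1 cell held 81.5% of the 27 Hist2h2be counts. Hist3h2a was counted in 15.5% of cells there, against 12.8% in WT DN1. Hist1h1c was at 48.5 CPM, near the WT value. The summed log2 ratio was -0.84.

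In the DN2-3 gate, Tcf7-/- and WT had like sums (log2 ratio 0.09) with members moving both ways. Of 19 measured, 4 were higher and 1 lower, where 13.6% of all measured genes were past 2-fold. Hist1h3c (17.3 against 0 CPM, 1.45), Hist1h2ag (13 against 1.21 CPM, 1.04), Hist1h2bj (21.7 against 5.63 CPM, 1.02) and Hist1h3g (10 against 0 CPM, 1.00) were higher, and the 0 values allow up to 0.603 CPM. Hist3h2a was lower, at 5.85 against 59.7 CPM (-2.14), counted in 15 of 93 against 38 of 88 cells. Replication genes summed to 7360 CPM in this library and 4880 CPM in WT, and their part in these ratios was not tested.

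Vav-cre DN2-3 had 5 members lower and 2 higher than WT DN2-3 of 17 measured, where 16.3% of all measured genes were past 2-fold. Hist3h2a (9.13 CPM, log2 ratio -1.87), Hist1h1d (5.48 CPM, -1.50), Hist1h4i (14.1 CPM, -1.21), Hist1h2bc (53.4 CPM, -1.10) and Hist1h1e (33.1 CPM, -1.07) were lower. Hist3h2ba (26 against 3.62 CPM, 1.40) and Hist2h2be (16.7 against 1.61 CPM, 1.20) were higher. In Vav-cre DN2-3, 1 cell held 81.6% of the Hist1h2bc counts and 1 held 68.4% of the Hist3h2ba counts. The summed log2 ratio was -0.52, close to the 0.50 that separates the 2 Lck-cre plates.

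The mean of the Lck-cre plates was close to WT DN2-3, with a summed log2 ratio of 0.06. Of 15 members measured, Hist1h3c was higher (1.04) and Hist1h1d lower (-1.19), where 4.42% of all measured genes were past 2-fold. Hist3h2a was at 58.9 and 36.8 CPM, near the WT value of 59.7 CPM and above the 5.85 and 9.13 CPM of Tcf7-/- and Vav-cre DN2-3. Between the Lck-cre plates themselves, 3 of 12 measured members were past 2-fold, where 5.38% of all measured genes were. Hist1h2bc was at 249 CPM on plate 2 and 40.7 CPM on plate 1 (2.35), Hist1h1d at 20.4 and 2.13 CPM (1.32) and Hist1h1b at 13.4 and 39.9 CPM (-1.10). For these 3 members a 2-fold ratio of a single library is therefore no larger than the difference between plates of 1 group.

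Many H2A and H2B members lie head to head, with their start sites close together, and the 2 genes of a pair were often counted very unequally. There were 13 such pairs within 400 bases. Hist1h2ae had 4700 counts per kb over all kept cells and its partner Hist1h2bg, 175 bases away, had 210 (3310 and 130 counts). Hist1h2ap had 3230 and Hist1h2br, 235 bases away, 13.2. Their counts, 1556 and 29, differ less, as the Hist1h2br model is longer. In the pair Hist1h2ac and Hist1h2bc, 250 bases apart, the H2B member led with 3560 against 236 per kb (4120 against 586 counts). Hist1h2ag and Hist1h2bj, 269 bases apart, were even at 779 and 780. In the even pair, Hist1h2ag was found in 42 of the 675 cells and Hist1h2bj in 30, and 9 of these 30 cells held both. Hist1h2ae was found in 155 cells, Hist1h2bg in 20 and both in 7. Shared windows with other copies, noted above, could move counts into or out of a pair, and this was not tested.

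**Figure D5:**
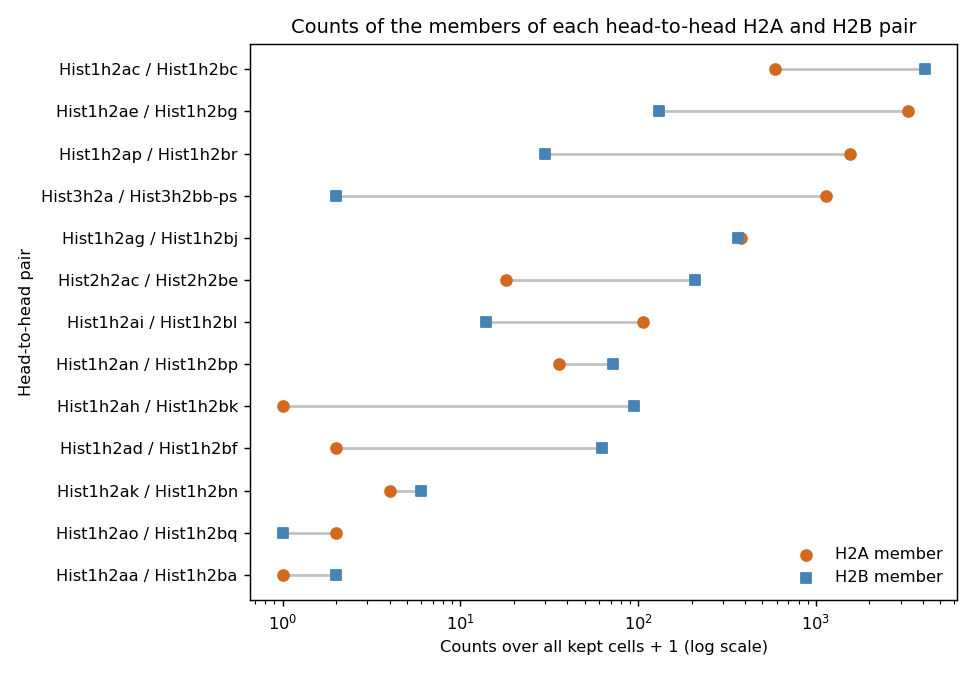
Counts over all 675 kept cells plus 1 (log scale) for the H2A member (circle) and the H2B member (square) of each of 13 head-to-head pairs. Hist1h2ag and Hist1h2bj coincide at 378 and 361 counts, whereas Hist1h2ae and Hist1h2bg lie at 3310 and 130.

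Start-site regions are shown for 3 members that rose with the replication score and for Hist3h2a, which did not. Each is the 150 bases before the RefSeq start (GRCm38.p6), read on the gene's strand. Capitals mark the CCAAT box (CCAAT), the TATA box (TATAAA) and the octamer (ATTTGCAT), each searched on both strands.
Hist1h2ae, chr13:23571221-23571370 (minus strand): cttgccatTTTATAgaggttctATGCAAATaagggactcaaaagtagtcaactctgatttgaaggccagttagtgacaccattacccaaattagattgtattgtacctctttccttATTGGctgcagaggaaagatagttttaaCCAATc
Hist1h1b, chr13:21780626-21780775 (minus strand): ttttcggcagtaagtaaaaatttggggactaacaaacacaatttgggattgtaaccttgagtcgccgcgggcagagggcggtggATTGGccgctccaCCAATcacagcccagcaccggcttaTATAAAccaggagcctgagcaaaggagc
Hist1h2bj, chr13:22043048-22043197 (plus strand): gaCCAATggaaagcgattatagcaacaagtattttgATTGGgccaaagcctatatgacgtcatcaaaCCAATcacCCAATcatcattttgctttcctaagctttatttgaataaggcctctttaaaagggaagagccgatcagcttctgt
Hist3h2a, chr11:58954535-58954684 (plus strand): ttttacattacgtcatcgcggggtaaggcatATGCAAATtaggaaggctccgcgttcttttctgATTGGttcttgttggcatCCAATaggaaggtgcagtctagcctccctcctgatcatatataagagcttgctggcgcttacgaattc
RefSeq regions were matched for 61 members (62 regions). In the 250 bases before the start, CCAAT was present in 82.3% of them and in 33.8% of 32851 regions of all genes. TATAAA was present in 46.8% against 12.4%, and the octamer in 22.6% against 1.6%. The octamer was found in 41.2% of H2A and 41.2% of H2B regions and in none of the H1, H3 and H4 regions, where members of a head-to-head pair share part of their windows. CCAAT stood in all H1, H2A and H2B regions, in 80% of H3 and in 25% of H4 regions. The Hist3h2a region holds CCAAT and the octamer as the Hist1h2ae region does, although their values against the replication score had opposite signs. Both regions lie between head-to-head genes, with Hist1h2bg 175 bases from Hist1h2ae and Hist3h2bb-ps 172 bases from Hist3h2a. A match there cannot be assigned to a single gene of the pair. A match is a description of these letters, not a bound site.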

How the data were processed

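RNA was measured in 768 thymocytes by a modified STRT single-cell protocol. Per the submitters' processing notes, TopHat2 2.1.1 and HTSeq served for alignment and counting, on mm10 (also given as GRCm38 for 576 cells). The authors deposited raw counts and also log2 values, both by gene and cell, the latter named log2(TPM/10 + 1). Turned back, the authors' log2 values were proportional to the counts within 0.1% in 655 of 675 kept cells, and they were used only as an alternative. Gene annotation, multi-copy reads and molecular identifiers are not given in the sources used here. Doublets were not called, because each well took 1 sorted cell.

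Of 23154 entries, 27 with a date in place of a symbol (0.141% of counts) were dropped. Cells with at least 1000 genes were kept, and counts were summed per library or score class. Summed counts were tested with edgeR 4.0.16 (quasi-likelihood, TMM, filterByExpr, adjusted p under 0.05, R 4.3.3). The approximate SE is the log2 fold change divided by the square root of its F value. DESeq2 1.42.0 was an alternative. The replication score and gate tests were tried on simulated counts with the same dispersion for all genes. Counts held mostly by single cells were not simulated. Positions and stem-loops come from GENCODE M21 and start-site regions from RefSeq. The labels share barcode numbers 1 to 96 between plates, which mark wells and pair nothing, so plates or genotypes served as blocks. Members described singly reached 20 CPM in a library or passed a test, and other genes come from fixed lists. Members, lists and tests were chosen with earlier results of these data known.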

Additional observations from a re-analysis of the deposited data

Results flagged for a closer look

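Hist3h2a differed from WT in opposite directions in the 2 gates of the library pair labelled Vav-cre. Its log2 ratio with a pseudocount of 10 CPM was 1.03 in the DN1 gate (34.2 against 11.7 CPM) and -1.87 in the DN2-3 gate (9.13 against 59.7 CPM). Each value rests on 1 library, and the difference between the gates was not tested. No other member was past 2-fold in opposite directions in both gates for the Vav-cre or the Tcf7-/- libraries.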

How the results depend on the processing

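With the replication score, 4 members rose as reported and 1 rose with all 8 plates, 1 without the highest cell of each gene (an alternative chosen after seeing the data), 1 in sums of thinned cells, 7 with DESeq2 and 7 with no filter on low counts. Leaving out 1 plate gave 1 to 5. Hist1h2ae was among them in each of these settings. With the mitosis score, 4 rose as reported, 2 with all 8 plates, 2 without the highest cell and 2 in thinned sums, and leaving out 1 plate gave 4 each time. In the gate comparison, 2 rose as reported, 1 with cells of at least 2000 genes, 5 with DESeq2 and 1 without the highest cell, and leaving out 1 genotype gave 0 to 1. No member fell as reported with the replication score, but 2 did with 2 equal parts of the cells in place of 3 (Hist1h1c and Hist1h2bc), and Hist3h2a did with DESeq2, without the Vav-cre plate and without the highest cell.

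Without the replicate block, 2 members rose with the replication score, 3 with the mitosis score and 3 in the gate comparison. No paired analysis by the shared barcode numbers was possible because they mark wells of separate plates.

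The log2 ratio of summed members was within 0.35, the SD of the 2 Lck-cre plates, of its reported value in other settings, with these exceptions. Without the highest cell of each gene, WT DN2-3 against WT DN1 was 1.20 (0.74 reported), Vav-cre DN1 against WT -1.21 (-0.84) and Vav-cre DN2-3 against WT -1.05 (-0.52). In cells of low replication score, WT DN2-3 against WT DN1 was 1.28, and against WT DN2-3 the Tcf7-/- ratio was -0.79 (0.09 reported), Vav-cre -0.96 and Lck-cre -1.04 (0.06 reported). For Tcf7-/- DN1 against WT (-0.79) it was -0.07 with cells weighted equally, -0.36 in thinned sums and -0.13 from the authors' log2 values. The 2 Lck-cre plates, which set that SD, themselves moved further apart in thinned sums, with 869 CPM on plate 2 against 432 CPM on plate 1 (800 and 566 reported). They changed order in the further set of low-score cells, with 202 against 545 CPM. Without 1 Lck-cre plate, Lck-cre against WT DN2-3 was -0.19 to 0.31. The cause was not tested.

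Over all genes, 464 rose and 212 fell with the replication score, against 809 and 544 with DESeq2, 257 and 36 with no replicate block, 154 and 35 with all 8 plates and 207 and 121 in thinned sums. With the mitosis score these were 174 and 45 as reported and 353 and 160 with DESeq2. In the gate comparison they were 94 and 270, and 642 and 884 with DESeq2. Depth limits the rest: 41 of 68 members had too few counts for any of the 3 tests.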
